A study of Mus musculus with 4 samples.

Results

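ATP-binding cassette (ABC) transporter genes of the mouse liver were described by the accessibility and the H2A.Z occupancy of their promoters and gene bodies. Members were the protein-coding genes of GENCODE vM21 on chromosomes 1 to 19 whose name is Abc, a letter from a to g and a number, which gave 48 of 20807 protein-coding genes: 16 in subfamily A, 9 in B, 10 in C, 3 in D, 1 in E, 3 in F and 6 in G. The data were 4 peak lists, from ATACseq, in which Tn5 transposase cuts accessible DNA, and from ChIPseq for the histone variant H2A.Z on chromatin digested with micrococcal nuclease. In each assay, WT was a single liver of a Uhrf1-Fl/fl male without Cre, and Uhrf1hepKO a single liver of a Uhrf1-fl/fl;Alb:Cre male. All were 8 to 12 weeks old, on the C57Bl/6 background and a normal diet, with no other treatment. Alb:Cre is expressed from the albumin promoter in hepatocytes, so other liver cells of the Uhrf1hepKO mouse keep Uhrf1, which encodes a factor needed for maintenance DNA methylation. There was 1 library per condition, so there was no replicate error and no test, and Wilson 95% intervals cover counting error only.

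ABC transporters use ATP to move lipids, bile salts, drugs, peptides and metal complexes across membranes. In hepatocytes, a set of them in the canalicular membrane makes bile: Abcb11 exports bile salts, Abcb4 phosphatidylcholine, Abcg5 with Abcg8 sterols, and Abcc2 conjugates such as bilirubin glucuronides. Others in the basolateral membrane return conjugates to blood, and Abca1 loads cholesterol on apolipoprotein A-I. H2A.Z replaces H2A in nucleosomes at the edges of many promoters, where the nucleosome-free DNA between them is often found as an ATACseq peak.

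The sequences below were chosen because they carry the arrangements described further on, and were read from the RefSeq FASTA of GRCm38.p6 on the strand of the gene. Abcg5 and Abcg8 face away from each other, and the WT ATACseq peak between them, chr17:84683009-84683168, is shown with capitals from the start of Abcg8 (its transcripts begin at 84683121) to that of Abcg5 at 84683011. For Abcg2, the 300 bases around its internal starts, chr6:58640296-58640595, are shown with each CpG in capitals. The promoter of Abcb11, chr2:69342567-69342866, is shown with its AGGTCA hexamer, found on the other strand, in capitals, and that of Abcc2, chr19:43781942-43782241, with its CpGs in capitals as an example without peaks. The ATACseq peaks of Uhrf1hepKO at Abcb4 (chr5:8893620-8893766) and Abce1 (chr8:79711691-79711791), printed up to 49 bases after the TSS, have CpGs in capitals, and the WT peak at Abcb1a (chr5:8659933-8660121) has TGACTCA, on the other strand, and AGGTCA in capitals.
Abcg5/Abcg8: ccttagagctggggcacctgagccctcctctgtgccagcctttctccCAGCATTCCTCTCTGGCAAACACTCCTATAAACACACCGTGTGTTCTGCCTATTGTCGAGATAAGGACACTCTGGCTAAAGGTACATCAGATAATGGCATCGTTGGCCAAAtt
Abcg2 internal starts: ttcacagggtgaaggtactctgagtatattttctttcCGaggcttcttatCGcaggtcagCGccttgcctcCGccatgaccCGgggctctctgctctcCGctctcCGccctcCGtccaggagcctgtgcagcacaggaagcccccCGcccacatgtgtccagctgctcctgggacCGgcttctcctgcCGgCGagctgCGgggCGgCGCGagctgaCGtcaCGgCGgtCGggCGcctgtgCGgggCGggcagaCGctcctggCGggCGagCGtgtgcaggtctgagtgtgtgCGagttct
Abcb11: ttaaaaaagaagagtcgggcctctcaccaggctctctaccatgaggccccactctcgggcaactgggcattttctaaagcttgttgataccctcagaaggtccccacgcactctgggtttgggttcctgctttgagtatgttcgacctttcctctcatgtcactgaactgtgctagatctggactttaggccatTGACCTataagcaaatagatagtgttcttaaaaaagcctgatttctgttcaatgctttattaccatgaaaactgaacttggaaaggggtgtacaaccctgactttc
Abcc2: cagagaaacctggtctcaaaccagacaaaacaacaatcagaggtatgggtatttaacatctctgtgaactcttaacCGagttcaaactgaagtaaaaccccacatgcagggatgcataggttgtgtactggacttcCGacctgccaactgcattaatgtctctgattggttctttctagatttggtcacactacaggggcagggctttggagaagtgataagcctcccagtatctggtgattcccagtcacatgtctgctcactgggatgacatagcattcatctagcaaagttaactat
Abcb4: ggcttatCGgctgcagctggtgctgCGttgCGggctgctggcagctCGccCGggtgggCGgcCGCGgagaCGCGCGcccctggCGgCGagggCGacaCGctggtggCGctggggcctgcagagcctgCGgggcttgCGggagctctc
Abce1: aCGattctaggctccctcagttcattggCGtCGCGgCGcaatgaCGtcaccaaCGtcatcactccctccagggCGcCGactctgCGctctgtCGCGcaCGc
Abcb1a: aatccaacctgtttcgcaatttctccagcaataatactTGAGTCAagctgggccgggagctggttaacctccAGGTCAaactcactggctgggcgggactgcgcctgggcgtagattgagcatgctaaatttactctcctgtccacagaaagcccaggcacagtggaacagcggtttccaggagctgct

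The lists held 10758 WT and 10972 Uhrf1hepKO ATACseq peaks and 51702 WT and 47391 Uhrf1hepKO H2A.Z peaks. Fold enrichment over local background was not scaled between libraries, so folds are not to be compared between genotypes. Many folds are given with their percentile in their own list. In the H2A.Z lists the folds fell on even steps, from which the number of reads at a summit was read in 94.2% of WT and 90.4% of Uhrf1hepKO peaks, with exact Poisson 95% intervals. The Uhrf1 TSS held 1 peak in each of the 4 lists, so the deletion was not visible in them. Of 10 hepatocyte markers, ATACseq peaks lay within 5 kb of the TSS of none in WT and of 2 in Uhrf1hepKO (Alb and Fga), and H2A.Z of 1 in WT (Ttr) and none in Uhrf1hepKO, so the absence of a peak cannot be read as the absence of expression. A whole liver was used, so a peak that is weak in all cells and one that is strong in few cells cannot be told apart.

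H2A.Z was the mark most members carried at the TSS, and ATACseq peaks were found at fewer. Within 5 kb of the TSS, 32 of 48 members had an H2A.Z peak in WT (66.7%, Wilson 95% interval 52.5 to 78.3) beside 54.4% of all protein-coding genes, and 32 had one in Uhrf1hepKO beside 52.6%. ATACseq peaks were found at 14 members in WT (29.2%, 18.2 to 43.2) beside 31.4% of coding genes, and at 14 in Uhrf1hepKO beside 29.0%. The intervals hold the share of all coding genes in each of the 4 lists. Within 500 bp of the TSS, H2A.Z was found at 31 members in WT (64.6%, 50.4 to 76.6) beside 44.6% of coding genes. In Uhrf1hepKO it was found at 29 (60.4%, 46.3 to 73.0) beside 43.2%. There the intervals lie above the share of coding genes, but they treat members as independent, and Abca3 and Abca17 share a peak. Both assays marked 12 members in WT beside 29.0% of coding genes, and 13 in Uhrf1hepKO beside 26.2%. In the other direction, 13 members had no peak at the TSS in any list (27.1%) beside 40.6% of coding genes.

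In the gene body, ATACseq peaks were found in 17 members in WT (35.4%) beside 31.3% of coding genes and in 16 in Uhrf1hepKO (33.3%) beside 29.6%. H2A.Z peaks were found in 28 in WT (58.3%) beside 47.8% and in 25 in Uhrf1hepKO (52.1%) beside 45.0%. Members were longer than other genes, with a median of 64.6 kb against 17.6 kb, so peaks more than 5 kb from the TSS were also counted per length. H2A.Z reached 1.77 peaks per 100 kb in WT and 1.39 in Uhrf1hepKO, against 1.28 and 1.16 over all coding genes. Without Abcg2 and Abca4, a choice made after their counts were seen, the members had 1.09 and 0.808. The share of genes with such a peak ran the other way among long genes. Of the 33 members of 40 kb or longer, 42.4% in WT and 36.4% in Uhrf1hepKO had an H2A.Z peak more than 5 kb from the TSS, against 47.1% and 44.8% of coding genes of that length, and 15.2% and 18.2% had an ATACseq peak there, against 23.1% and 23.4%.

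**Figure D1:**
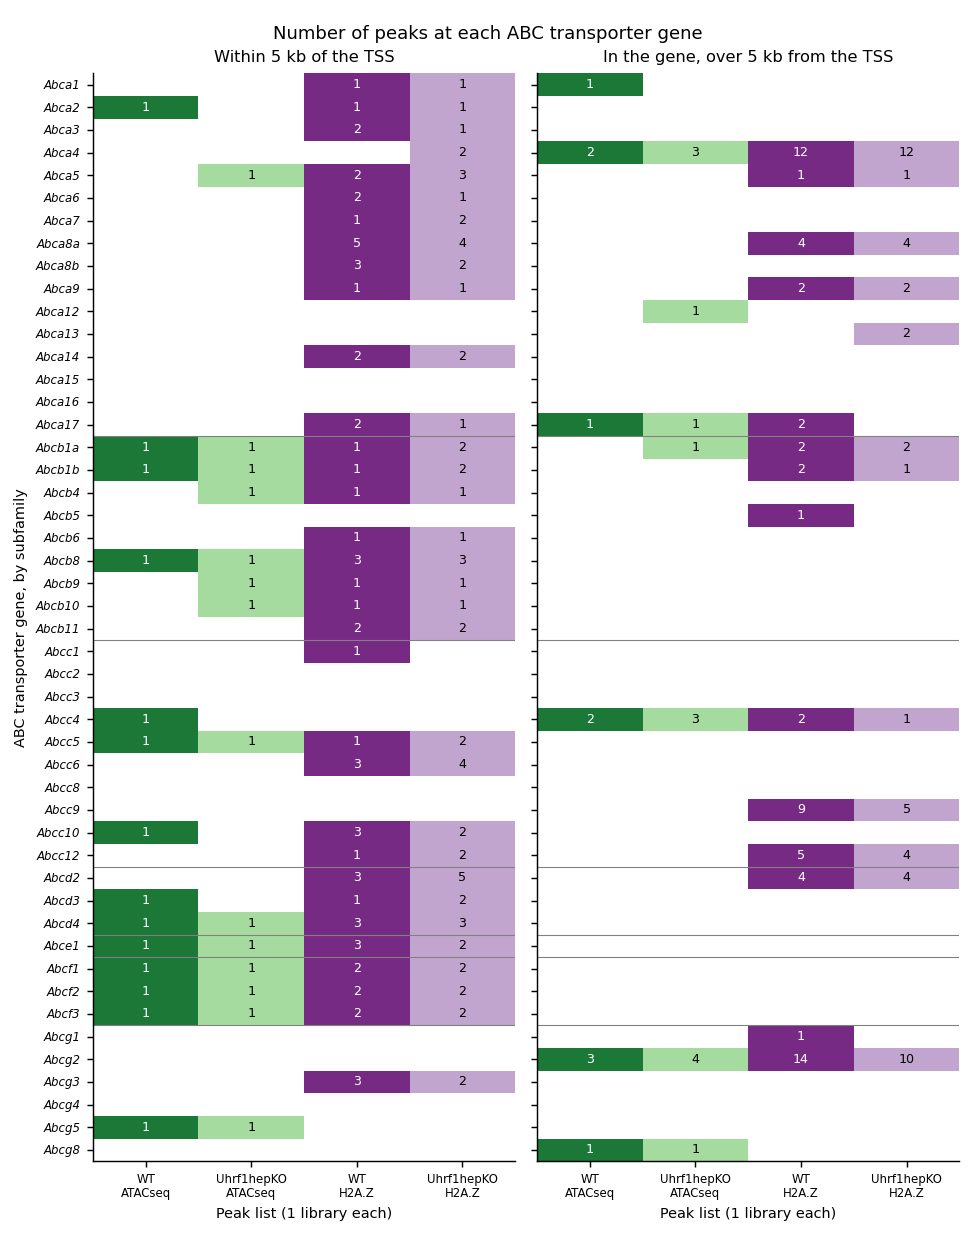
Each row is 1 of the 48 ABC transporter genes, each column 1 of the 4 lists, and the number in a coloured cell is the count of peaks, within 5 kb of the TSS on the left and deeper in the gene on the right. H2A.Z fills 32 rows in each genotype on the left, ATACseq 14, and on the right Abcg2 and Abca4 hold the most peaks.

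By subfamily, the 4 genes of E and F, which encode soluble ATPases without membrane domains, had a TSS peak in all 4 lists, beside 21.9% of coding genes. The counts of the other subfamilies are to be set beside the shares of coding genes given above, 54.4% in WT and 52.6% in Uhrf1hepKO for H2A.Z and 31.4% and 29.0% for ATACseq. Of the 9 genes of subfamily B, 8 had H2A.Z in both genotypes, beside 50.4% of coding genes, and 3 in WT and 6 in Uhrf1hepKO had an ATACseq peak. Among those 6, the peaks of Abcb4, Abcb9 and Abcb1b were borderline, with q-values of 0.0782, 0.077 and 0.091. In subfamily A, H2A.Z was found at 11 of 16 in WT and 12 in Uhrf1hepKO, and ATACseq at 1 in each. In C, 5 of 10 had H2A.Z in WT and 4 in Uhrf1hepKO, and 3 and 1 had an ATACseq peak. All 3 genes of D had H2A.Z. In G, 1 of 6 genes had H2A.Z at the TSS (Abcg3) and 1 an ATACseq peak (Abcg5), in both genotypes.

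A TSS peak in all 4 lists was found at 9 members (18.8%) beside 21.9% of coding genes. They were Abce1, Abcf1, Abcf2, Abcf3, Abcb1a, Abcb1b, Abcb8, Abcc5 and Abcd4. Abce1 recycles ribosomes after termination and Abcf1 takes part in translation initiation. Abce1 had the highest ATACseq fold of any member TSS, 8.33 in WT (98.3rd percentile) and 8.79 in Uhrf1hepKO (98.8th), in the CpG-rich stretch printed above. Its WT peak also reached the start of Anapc10, which is transcribed the other way, and H2A.Z lay on both sides, at +207 and -229 bp in WT with 36 and 37 reads and at +212 and -231 bp in Uhrf1hepKO with 34 and 32. Abcf2 was next, with an ATACseq fold of 6.86 in WT and 7.66 in Uhrf1hepKO over its TSS, and H2A.Z at -411 and +225 bp in WT. Abcf1 and Abcf3 had lower ATACseq folds, 4.85 and 4.68 in WT and 3.46 and 3.57 in Uhrf1hepKO. The ATACseq peak covered the TSS of Abce1, Abcf2 and Abcf3 in both genotypes, with H2A.Z on both sides. At Abcf1 it lay upstream of the TSS in both genotypes, and in Uhrf1hepKO it was weak, at the 17.1th percentile with a q-value of 0.0504.

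The canalicular exporters did not share 1 pattern. Of the 8 genes, 4 had H2A.Z at the TSS in both genotypes (Abcb11, Abcb4, Abcb1a and Abcb1b), beside 50.4% of coding genes. ATACseq peaks lay at 3 in WT (Abcb1a, Abcb1b and Abcg5) and at 4 in Uhrf1hepKO, where Abcb4 was added, beside 31.4% and 29.0%. Abcc2, Abcg2 and Abcg8 had no TSS peak in any list.

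Abcb11, the bile salt export pump, had strong H2A.Z and no ATACseq peak. Its summit lay at -212 bp in WT with a fold of 10.72 (97.3rd percentile) and 43 reads (31.1 to 57.9). In Uhrf1hepKO it lay at -219 bp with a fold of 10.69 (96.5th percentile) and 45 reads (32.8 to 60.2). This was the third highest fold of the members in each H2A.Z list, at a promoter with 12 CpGs within 500 bp of the TSS. A second peak was called at -595 bp in WT with 23 reads (14.6 to 34.5) and at +103 bp in Uhrf1hepKO with 27 (17.8 to 39.3). Neither overlapped a peak of the other list, where signal too low to be called is not known. The nearest ATACseq peak was 12924 bp away in WT and 12923 bp in Uhrf1hepKO. The AGGTCA hexamer, a binding motif of nuclear receptors, lies in the printed promoter from -56 to -51, between the pair of H2A.Z peaks of Uhrf1hepKO and downstream of both WT peaks.

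Abcb4, which moves phosphatidylcholine to the outer leaflet of the canalicular membrane, lies next to Abcb1a and Abcb1b, the genes of P-glycoprotein, which exports drugs. Over the 309 kb of chromosome 5 that holds the 3 genes, all 3 TSSs had H2A.Z in both genotypes. Abcb4 had the weakest, with a fold of 3.66 and 14 reads (7.65 to 23.5) at -155 bp in WT and 3.95 and 16 reads (9.15 to 26.0) at -191 bp in Uhrf1hepKO. Its ATACseq peak covered the TSS in Uhrf1hepKO with a fold of 3.36 at the 10.4th percentile and a q-value of 0.0782, in DNA of 80.2% GC, and the nearest WT peak was 95140 bp away. Abcb1a had an ATACseq peak over the TSS in WT (fold 3.77, 22.7th percentile). In Uhrf1hepKO its peak ended 29 bp before the TSS (fold 3.89, 42.8th percentile). H2A.Z covered its TSS with 26 reads in WT and 29 in Uhrf1hepKO. The WT peak holds TGACTCA, the AP-1 motif, from -106 to -100 and AGGTCA from -72 to -67, as the capitals show. Abcb1b had ATACseq peaks that did not overlap, at +367 bp in WT (fold 4.06, 38.4th percentile) and at +44 bp in Uhrf1hepKO. The latter had a fold of 3.33, at the 7.3rd percentile with a q-value of 0.091. H2A.Z lay over the Abcb1b TSS with 24 reads in WT and 27 in Uhrf1hepKO.

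Abcg5 and Abcg8, whose products form a single sterol exporter, had ATACseq without H2A.Z. The WT peak (fold 3.99, 35th percentile) covered the Abcg5 TSS and the first Abcg8 start beside it, which are 110 bp apart. In Uhrf1hepKO the peak of this region lay at -535 bp from Abcg5 (fold 3.37, 10.8th percentile) and did not overlap the WT peak. GENCODE also gives Abcg8 a transcript that starts 6819 bp before these, and it was this start that set the Abcg8 window, so Abcg8 counted as having no TSS peak. The nearest H2A.Z peak to Abcg5 was 35283 bp away in WT and 56394 bp in Uhrf1hepKO. Abcg5 was the sole member with an ATACseq peak within 500 bp of its TSS and no H2A.Z within 1 kb of the TSS in either genotype. Among coding genes with such an ATACseq peak, 7.56% in WT and 10.2% in Uhrf1hepKO had no H2A.Z there.

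Abcg2, an exporter of drugs and urate, had no peak at the TSS of its gene record and the most peaks in its body. That record begins at chr6:58584523, with 5 CpGs within 500 bp, and the nearest peak of any list was 10098 bp away. Within the gene were 14 H2A.Z peaks in WT and 10 in Uhrf1hepKO, and 3 and 4 ATACseq peaks. At 4 internal transcript starts, between 58640546 and 58640582, H2A.Z lay on both sides. In WT, a peak with 20 reads ended 107 bp before the first of them and a peak with 37 reads began 271 bp after the last. In Uhrf1hepKO the distances were 109 and 97 bp, with 29 and 26 reads. The printed stretch around these starts holds 28 CpGs and GGGCGG 4 times. No ATACseq peak lay between the H2A.Z peaks, and the nearest before them was 28666 bp away in WT and 28679 bp in Uhrf1hepKO. Another set of H2A.Z peaks, of low fold for their lists, lay over or just after the starts at 58595975 and 58596671. Their folds were 2.52 to 4.27 in WT (percentiles 0.4 to 23.8) and 2.06 and 3.91 in Uhrf1hepKO (percentiles 0.3 and 10.4). The q-values of these peaks were 2.54e-07 to 0.000508 in WT and 0.0237 and 1.54e-13 in Uhrf1hepKO. Their folds were off the even steps, so the reads at these summits are not known.

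Abcc2, the exporter of conjugated bilirubin, was 1 of 6 members with no peak at the TSS or in the gene in any list. The others were Abcc3, Abcc8, Abcg4, Abca15 and Abca16. The nearest H2A.Z peak to the Abcc2 TSS was 5447 bp away in WT and 5451 bp in Uhrf1hepKO, just outside the window, and the nearest ATACseq peak 29166 and 106726 bp. Just inside the window was Abcc12, whose H2A.Z peaks began 4929 bp from the TSS in WT and 4664 bp in Uhrf1hepKO. A peak in no list, body included, was found for 31.4% of coding genes.

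Abca4, the retinoid transporter of photoreceptors, had 12 H2A.Z peaks in the gene in each genotype, and 2 ATACseq peaks in WT and 3 in Uhrf1hepKO. A group of 5 H2A.Z peaks in WT, from +28588 to +30717 bp, lay on both sides of an internal transcript start at +30011 bp. The highest in WT had 36 reads at +29155 bp, and the highest in Uhrf1hepKO 36 reads at +29130 bp. At +60193 and +77834 bp, ATACseq and H2A.Z peaks overlapped in WT, with ATACseq folds of 4.84 and 4.51 there and of 4.38 and 3.70 in Uhrf1hepKO. At the TSS, H2A.Z was found in Uhrf1hepKO alone, at -1479 and -1055 bp with 16 and 17 reads.

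**Figure D2:**
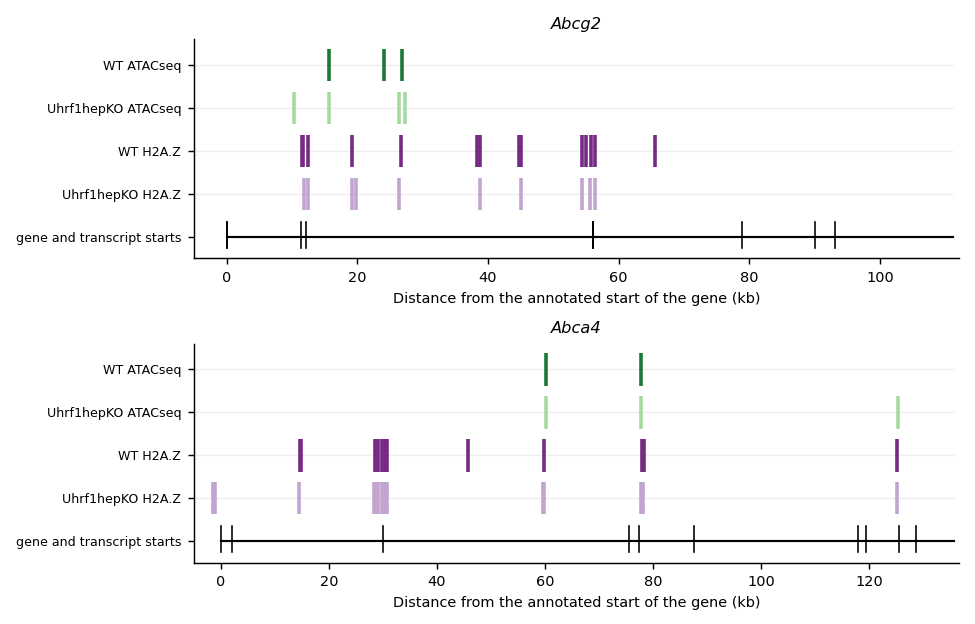
Peak positions (vertical bars, 1 row per list) along Abcg2 and Abca4, in kb from the start of each gene; the black line is the gene and its ticks are annotated transcript starts. Some H2A.Z bars lie by internal transcript starts, 11452 and 56023 bp into Abcg2 and 30011 bp into Abca4, in both genotypes. The bars by the start at 11452 bp have low folds, with percentiles of at most 23.8 in WT and 10.4 in Uhrf1hepKO. Many other H2A.Z bars lie far from any annotated start, and several starts have no H2A.Z bar beside them.

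Among the basolateral exporters, Abcc6, which releases ATP from hepatocytes, had 3 H2A.Z peaks in WT and 4 in Uhrf1hepKO at the TSS. The peak at +101 bp had 15 reads (8.40 to 24.7) in WT and that at +106 bp 27 reads (17.8 to 39.3) in Uhrf1hepKO. The highest of them, with folds of 8.53 and 10.23, lay at -3187 bp in WT and -3185 bp in Uhrf1hepKO, closer to the start of Nomo1. Abcc1, an exporter of glutathione conjugates, had H2A.Z in WT alone, with 16 reads at +468 bp, and no peak in Uhrf1hepKO within 43372 bp of the TSS. Abcc4, which exports bile acids and cyclic nucleotides, had 112 CpGs within 500 bp of the TSS and no H2A.Z within 5 kb. Its WT ATACseq peak lay at -3698 bp with a fold of 3.66. In its introns, ATACseq peaks at +38569 and +70611 bp in WT overlapped Uhrf1hepKO peaks, with folds of 4.12 and 4.31 in WT and 3.74 and 3.73 in Uhrf1hepKO, and H2A.Z lay beside the latter in both genotypes. Abcc3, an exporter of bile acid and drug conjugates, had H2A.Z no closer than 8308 bp in WT and 8677 bp in Uhrf1hepKO. Thus 2 of these 4 genes had H2A.Z at the TSS in WT, beside 54.4% of coding genes, and 1 in Uhrf1hepKO, beside 52.6%.

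Of the 6 lipid exporters, 4 had H2A.Z at the TSS in both genotypes, beside 50.4% of coding genes. Abca1 had 22 reads at -284 bp in WT and 23 at -271 bp in Uhrf1hepKO, and no ATACseq peak at the TSS. A WT ATACseq peak lay in its intron at +65164 bp, with a fold of 4.04. Abca2, expressed in late endosomes and lysosomes, had 22 and 28 H2A.Z reads, and an ATACseq peak in WT alone at -132 bp with a fold of 5.09 (73.9th percentile), in DNA of 76.7% GC. Abca3, the phospholipid transporter of lung surfactant, and Abca17 start 882 bp apart on opposite strands and shared the same H2A.Z peak, with 29 reads in WT and 23 in Uhrf1hepKO. Abca7, a phospholipid transporter, had H2A.Z inside the gene, with 28 reads at +464 bp in WT and 26 at +460 bp in Uhrf1hepKO. Abcg1, which passes cholesterol to high-density lipoprotein, had 1 H2A.Z peak in WT at +46558 bp and none at the TSS with 62 CpGs within 500 bp of it. Abcg4, a sterol exporter of brain, had no peak.

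The 5 neighbours of subfamily A on chromosome 11 (Abca8b, Abca8a, Abca9, Abca6 and Abca5) had H2A.Z at every TSS in both genotypes, beside 50.4% of coding genes. Over their 416 kb lay 26 H2A.Z peaks in WT and 23 in Uhrf1hepKO, and 0 and 1 ATACseq peaks. Abca8a, with 6 CpGs within 500 bp of the TSS, had 5 WT and 4 Uhrf1hepKO peaks there, and the 1 over the TSS held 27 reads in each. Abca8b had 37 reads at -183 bp in WT and 33 at -175 bp in Uhrf1hepKO. Abca5, with 98 CpGs, had 39 reads at -245 bp in WT and 24 at -227 bp in Uhrf1hepKO. A site at +22469 bp in Abca9 had 44 reads in each genotype, more than the 21 and 23 reads near its TSS. These genes are tandem copies of each other, and how reads with several equal placements were treated is not given in the sources used here, so the split of reads among them is uncertain. On chromosome 7, Abca14, Abca15 and Abca16 are also neighbours, and Abca14 alone had peaks. It had an H2A.Z peak at -143 bp in WT (26 reads) and -146 bp in Uhrf1hepKO (37 reads). A second in its window, at -2369 and -2378 bp, lay nearer to the start of Crym, 519 and 528 bp from it.

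All 6 members of subfamily D and of the mitochondrial list had H2A.Z at the TSS in both genotypes, beside 50.4% of coding genes. In the D subfamily, Abcd2 and Abcd3 import fatty acyl-CoA into peroxisomes, and Abcd4 handles cobalamin in lysosomes. Abcd4 had the highest H2A.Z fold of the members. It was 12.92 in WT (99.5th percentile) at -280 bp and 13.48 in Uhrf1hepKO (99.6th percentile) at -295 bp. An ATACseq peak covered the Abcd4 TSS in both genotypes, with a fold of 4.02 in WT (36.3rd percentile) and 4.0 in Uhrf1hepKO (48.1st percentile). Abcd2 had 3 H2A.Z peaks at the TSS in WT and 5 in Uhrf1hepKO, the highest with 29 and 40 reads upstream. Abcd3 had a WT ATACseq peak over its TSS (fold 3.96) and none in Uhrf1hepKO within 289258 bp. Of the mitochondrial set, Abcb10, which serves heme synthesis, had 29 H2A.Z reads in WT and 35 in Uhrf1hepKO, and an ATACseq peak over the TSS in Uhrf1hepKO alone (fold 4.39). Abcb8 had ATACseq folds of 4.89 and 5.79 at +840 and +811 bp. Abcb6, of porphyrin transport, had 19 H2A.Z reads in each genotype.

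Several members outside these roles had peaks in the gene alone or a peak at the TSS of modest fold. Abcc5, an exporter of cyclic nucleotides, had an ATACseq peak over its TSS in both genotypes. The fold was 4.21 in WT (45.6th percentile) and 3.46 in Uhrf1hepKO (17.0th percentile, q-value 0.0509). H2A.Z lay at +519 bp with 20 reads in WT and at +528 bp with 24 in Uhrf1hepKO. Abcb9, a peptide transporter of lysosomes, had 18 and 21 H2A.Z reads at +166 and +133 bp. Its ATACseq peak, in Uhrf1hepKO, had a fold of 3.37 (10.6th percentile, q-value 0.077). Abcc9, a sulfonylurea receptor subunit of potassium channels of muscle, had 9 H2A.Z peaks in WT and 5 in Uhrf1hepKO in its introns and exons, none at the TSS, and its paralog Abcc8 had none at all. Abcc12 had 5 and 4 in its gene, the highest at +79377 bp with 37 reads in WT and at +79374 bp with 40 in Uhrf1hepKO. Abca12, of skin lipids, had 1 ATACseq peak in Uhrf1hepKO, in repeat-masked sequence at +158796 bp. Abca13 had 2 H2A.Z peaks in Uhrf1hepKO at +423423 and +424441 bp, and Abcb5 1 in WT at +39370 bp.

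**Figure D3:**
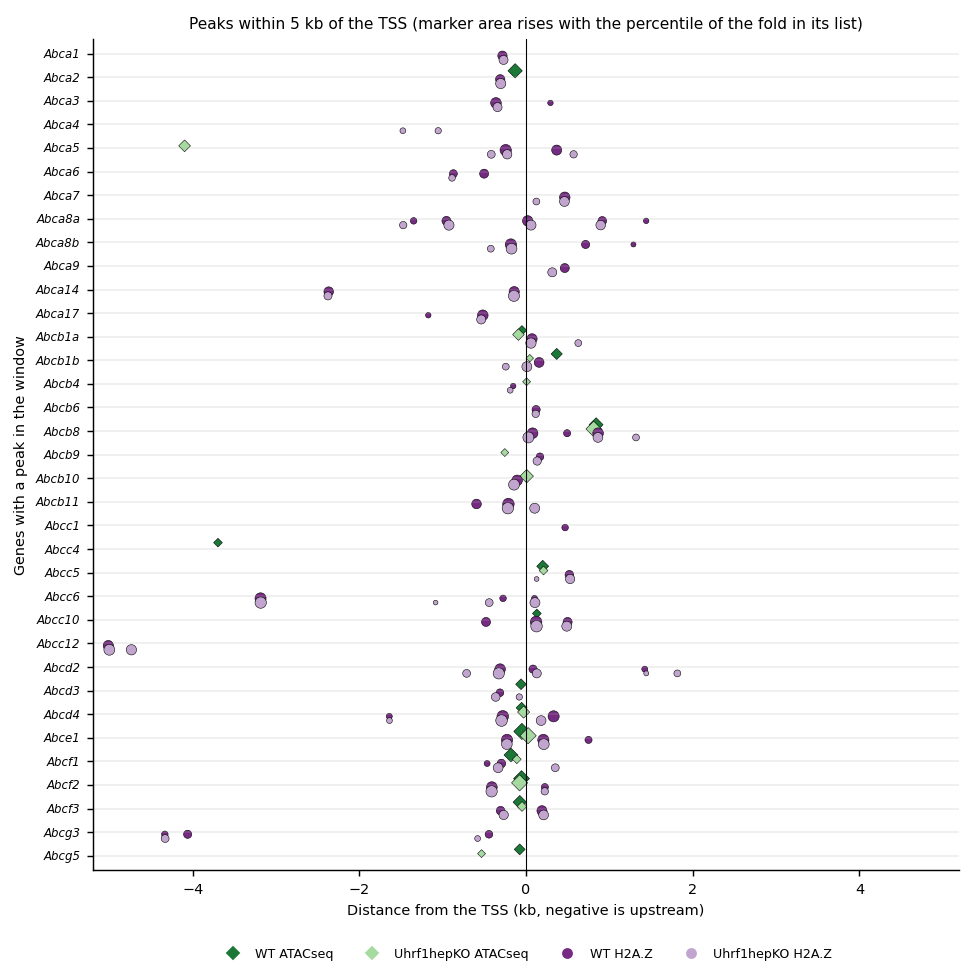
Peaks within 5 kb of the TSS by distance in kb, for the 35 members with any; diamonds are centres of ATACseq peaks, circles are H2A.Z summits, and larger markers have a higher fold percentile in their list. Most ATACseq diamonds sit at 0, with H2A.Z circles on their sides, and many rows of subfamily A hold circles without a diamond.

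H2A.Z summits flanked the TSS more often than they sat on it. Of 50 WT summits within 1 kb of a member TSS, 4 were within 100 bp of it, 25 upstream and 21 downstream, and of 51 in Uhrf1hepKO the counts were 5, 25 and 21. Over all coding genes, 5.95% of WT and 5.76% of Uhrf1hepKO summits were within 100 bp. Of ATACseq peaks within 1 kb, 7 of 13 in WT and 8 of 13 in Uhrf1hepKO were centred within 100 bp. Where an ATACseq peak lay within 500 bp of the TSS, which was so for 12 members in each genotype, H2A.Z was on both sides at 5 (41.7%) and on 1 side at 6 in each. The share with both sides over coding genes was 52.8% in WT and 47.9% in Uhrf1hepKO. Both sides in both genotypes were found at Abcd4, Abce1, Abcf2 and Abcf3.

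The ATACseq peaks in the TSS windows of members had a lower median fold percentile than those at all coding genes. It was 42.0 in WT and 34.0 in Uhrf1hepKO over the 14 peaks, against 59.9 and 60.8. The percentiles ranged from 16.3 to 98.3 in WT and from 7.3 to 98.8 in Uhrf1hepKO. Of the 14, 6 in WT and 4 in Uhrf1hepKO were at or above the median fold of their list. In Uhrf1hepKO, 6 of the 14 had a q-value above 0.05. H2A.Z peaks at the members had a median percentile of 54.0 in WT and 54.3 in Uhrf1hepKO, against 59.2 and 59.0.

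H2A.Z was found at 15 members in both genotypes with no ATACseq peak in either (31.2%, 19.9 to 45.3), beside 18.5% of coding genes. Among them were Abcb11, Abca1, Abca3, Abca7 and 4 of the 5 neighbours on chromosome 11. The interval treats the members as independent, but Abca3 and Abca17 both count from a shared H2A.Z peak. Abca17 and Abcb6 had an ATACseq peak within 5 kb of another transcript start in both genotypes. Members with fewer than 20 CpGs within 500 bp of the TSS had H2A.Z at 7 of 13 in each genotype (53.8%), against 21.5% and 20.3% of 7067 coding genes with as few. They were Abca6, Abca8a, Abca9, Abcb8, Abcb11, Abcc12 and Abcg3, of which 3 are neighbours on chromosome 11 and Abcc12 has its peaks near the edge of the window. Abcb8 is in this class by the start of its gene record, with 12 CpGs. Its WT ATACseq peak lay 95 bp after another annotated start and held 27 CpGs in 508 bp. With 20 CpGs or more, 25 of 35 members had H2A.Z (71.4%), against 71.3% and 69.2% of coding genes. ATACseq was found at 2 of 13 (15.4%) of the former in each genotype, against 7.66% and 7.75%, and at 12 of 35 (34.3%) of the latter, against 43.6% and 40%.

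**Figure D4:**
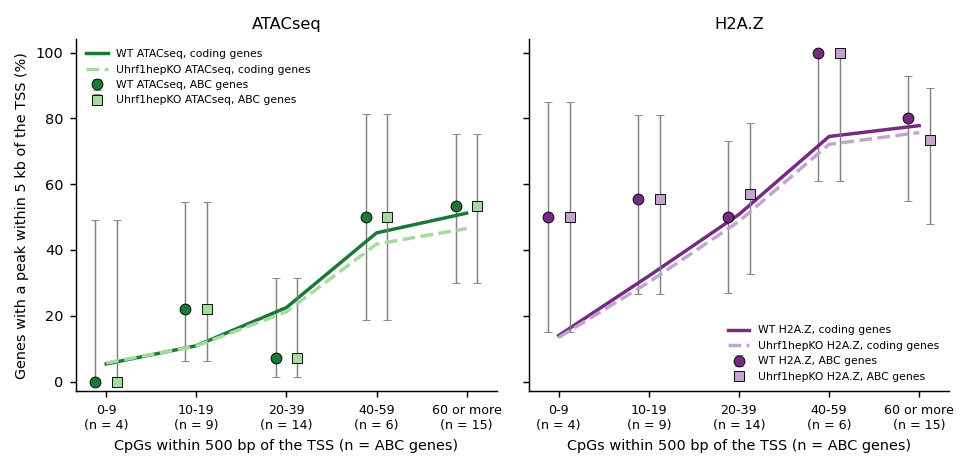
Share of genes (%) whose TSS window of 5 kb held a peak, by the number of CpGs within 500 bp, ATACseq on the left and H2A.Z on the right; points are ABC genes with Wilson 95% intervals, lines are all coding genes. With under 10 CpGs the H2A.Z points sit at 50%, which is 2 of 4 members in each genotype, and the lines at 14.0% and 13.4%. These 2 members are Abca8a and Abcc12, and the Abcc12 peaks lie near the edge of the window, so this class is too small to show an excess. With 60 or more, points and lines lie close.

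Most H2A.Z peaks at the members overlapped between genotypes. Of 120 WT H2A.Z peaks at the members, 87 overlapped a Uhrf1hepKO peak (72.5%, 63.9 to 79.7), against 73.9% at all coding genes. In 75 pairs each peak overlapped only the other. Peaks that overlapped several, such as peaks at the TSS of Abca5, Abca7, Abcb1b and Abcf1, were left out of the pairs. For 67 of the pairs the reads at both summits were known, and they ranged from 13 to 44 in WT and from 14 to 45 in Uhrf1hepKO. The median ratio of Uhrf1hepKO to WT reads was 1.07 (quartiles 0.918 and 1.24), against 1.06 over 18616 pairs at coding genes. The lowest ratio was 0.613, at +30301 bp of Abca4 with 31 and 19 reads, and the highest 1.8, at Abcc6 with 15 and 27. The 95% intervals of the 2 genotypes overlapped in each of the 67 pairs. H2A.Z at the TSS was found in WT alone at 1 member (2.08%), Abcc1, beside 3.99% of coding genes, and in Uhrf1hepKO alone at 1, Abca4, beside 2.17%.

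**Figure D5:**
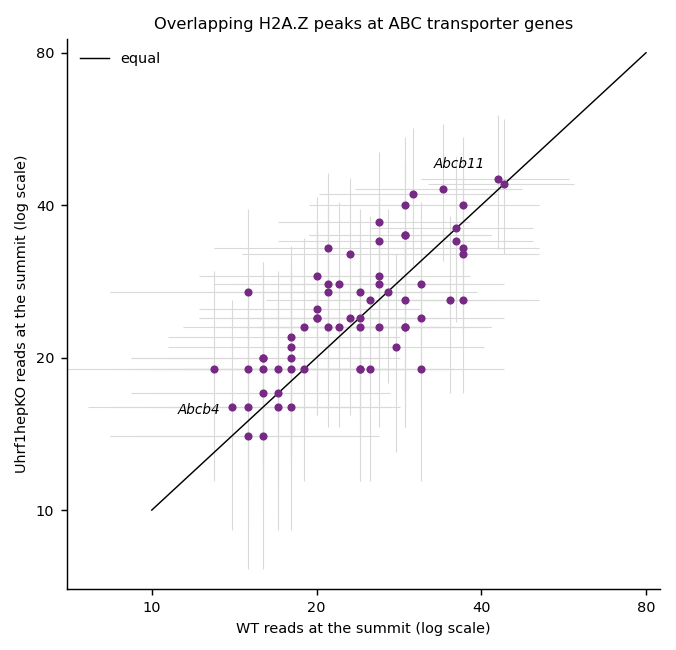
Reads at the summit of overlapping H2A.Z peaks in WT and Uhrf1hepKO at ABC transporter genes, on log axes. Each of the 67 points is a pair of peaks that overlapped only each other. Bars are exact Poisson 95% intervals. The points lie along the line of equality, with Abcb11 near the top at 43 and 45 reads and Abcb4 near the bottom at 14 and 16.

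Of 23 WT ATACseq peaks at the members, 15 overlapped a Uhrf1hepKO peak (65.2%, 44.9 to 81.2), against 65.3% at coding genes, and of 27 Uhrf1hepKO peaks 16 overlapped a WT peak (59.3%, 40.7 to 75.5), against 66.7%. In the TSS windows alone, 8 of 14 peaks in each genotype overlapped (57.1%, 32.6 to 78.6), against 72.9% in WT and 78.0% in Uhrf1hepKO at coding genes. An ATACseq peak at the TSS was found in WT alone at 4 members (8.33%), beside 7.44% of coding genes, and in Uhrf1hepKO alone at 4, beside 5.07%. WT alone had Abca2, Abcc4, Abcc10 and Abcd3, with folds of 5.09, 3.66, 3.67 and 3.96. Uhrf1hepKO alone had Abca5, Abcb4, Abcb9 and Abcb10, with folds of 3.91, 3.36, 3.37 and 4.39. The Abca5 peak lay at -4099 bp in sequence that was repeat-masked throughout. Abcc10, a transporter of lipophilic anions, had strong H2A.Z over its TSS in both genotypes, with folds of 12.67 and 12.08. The highest ATACseq fold of any member in Uhrf1hepKO was 12.72 (99.4th percentile), in an intron of Abca17 at +8184 bp, and the overlapping WT peak had a fold of 6.78 (94.6th percentile). This site was also repeat-masked throughout.

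The partners of these exporters in bile acid and sterol handling, 32 genes, were also counted. An ATACseq peak lay at the TSS of 3 in WT, beside 31.4% of coding genes, and of 6 in Uhrf1hepKO, beside 29.0%. H2A.Z was found at 13 in WT, beside 54.4%, and at 11 in Uhrf1hepKO, beside 52.6%. Of 8 genes of uptake and basolateral transport, 3 had H2A.Z in each genotype, and Slc10a1, the sodium-dependent bile acid importer, had no peak. Of 12 nuclear receptors and factors, 5 had H2A.Z in each genotype, among them Nr1h4, the bile acid receptor, with folds of 6.34 in WT and 6.51 in Uhrf1hepKO. Tap1 and Tap2, peptide transporters of the same family under other names, had H2A.Z at the TSS in both genotypes, and Cftr none. Of 48 member promoters, from 250 bp before to 50 bp after the TSS, 7 held AGGTCA (14.6%) on either strand, beside 14.8% of all coding promoters. GGGCGG was found in 22 (45.8%) beside 43.7%, CCAAT in 18 (37.5%) beside 38.6% and TGACTCA in 2 (4.17%) beside 4.52%. CACGTG, the E-box, was found in 8 (16.7%) beside 7.82%, TATAAA in 4 (8.33%) beside 12.7% and TGTTTAC in 0 beside 3.07%. Pairs of AGGTCA as an inverted repeat with 1 base between them, or as direct repeats with 1 or 4, and the HNF1 inverted repeat were in no member promoter and in at most 10 coding promoters each.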

How the data were processed

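The authors mapped reads with BWA-MEM on GRCm38.p4 and used Picard for cleaning. They called peaks per library (no pooling) by MACS2, in broad mode for ATACseq, with a stated p-value of 0.05. The highest q-values in the lists were 0.0997 in WT and 0.0993 in Uhrf1hepKO for ATACseq, and 0.05 and 0.0489 for H2A.Z. These ends differ between the assays and are not those of lists cut at a p-value of 0.05. Each deposited peak has a score for display, a ratio (the fold of read pileup over local background), and −log10 p- and q-values. H2A.Z peaks also have a summit, another deposited value. The caller's version and any control library are not given in the sources used here.

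Positions are 1-based. The TSS was the 5′ end of the GENCODE vM21 gene record, and a peak counted there if 1 bp or more of it lay within 5 kb. A distance is from the H2A.Z summit or the ATACseq centre. The share of all 20807 protein-coding genes was computed by the same rules as background. H2A.Z reads at a summit were read from the fold, (reads + 1)/(background + 1), with a background of 3.1 reads in WT and 3.3 in Uhrf1hepKO, where this came within 0.02 of a whole number. Depth is known through the lists alone, and reads without molecular identifiers are not independent molecules.

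The members, the lists of genes and the motifs were chosen with earlier results of these data known. Genes named are the canalicular, basolateral and lipid exporters, the members of subfamily D, and the mitochondrial and soluble members. Also named are members with a TSS peak in all or no lists and those with one in 1 genotype. The 3 highest folds per list and the members with the most body peaks are named too. Other members named were chosen after their values were seen. Kupffer cell and endothelial markers (4 and 5 genes) had no TSS peak in any list. In the gene body, however, 3 endothelial markers had H2A.Z in each genotype, and 2 in WT and 1 in Uhrf1hepKO had ATACseq. In WT 1 Kupffer cell marker had ATACseq in the gene body. At the TSS, of 5 cholangiocyte markers 2 had H2A.Z in each genotype and 1 ATACseq in WT, and of 5 stellate cell markers 1 had H2A.Z in WT. Sequence came from the RefSeq FASTA of GRCm38.p6, which has the chromosome positions of GRCm38.p4. The steps were tested on simulated data: all 200 planted genes were found. The work used scipy 1.17.1, pandas 2.3.3 and numpy 2.4.6 in Python 3.11.15, and matplotlib 3.10.9.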

Additional observations from a re-analysis of the deposited data

How the results depend on the processing

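The 12 counts were recomputed under 76 alternatives, each changing 1 choice, and 58 stayed within 1.5 times of the reported count. A minimum set at each list's median fold left ATACseq at the TSS of 6 members in WT and 4 in Uhrf1hepKO, both assays at 6 and 4, ATACseq in the body of 6 and 8, H2A.Z in the body of 17 in WT, and 5 ATACseq and 51 H2A.Z WT peaks that overlapped the other genotype. A q-value of 0.01 or less left ATACseq at the TSS of 7 and in the body of 10 in Uhrf1hepKO, both assays at 7 there, and 9 overlapping WT ATACseq peaks. Of the body more than 5 kb from the TSS, ATACseq marked 6 in WT and 7 in Uhrf1hepKO, and H2A.Z 14 and 12. With the ATACseq centre required in the gene, 10 members remained in WT. These alternatives use fewer peaks or less of each gene by construction. TSS windows of 500 bp, 1 kb and 10 kb, the start of any transcript, lists of equal length and an overlap of 50% moved no count by over 1.5 times. At equal list lengths, ATACseq at the TSS was in WT alone at 5 members and in Uhrf1hepKO alone at 4, and H2A.Z at 1 and 2. No paired analysis was possible because each condition had 1 library. Of the ATACseq peaks in the TSS windows, 4 of 14 in WT and 7 of 14 in Uhrf1hepKO had a q-value above 0.01.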

Other observations

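At the 31 members with H2A.Z at the TSS in both genotypes, the highest folds of the windows ran in similar order in the 2 lists (Spearman rho = 0.778, Pearson r = 0.829, n = 31 genes), across genes that share both libraries and, for Abca3 and Abca17, a peak.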
